A study of Mus musculus with 47 samples.

Results

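The clustered histone genes are the copies of H1, H2A, H2B, H3 and H4 that stand in gene clusters and carry names beginning with Hist1h, Hist2h, Hist3h or Hist4h. Such a name was carried by 68 of the 24062 gene symbols counted, and 59 of these reached a summed count of 20 over all 47 libraries and form the set described here. They comprised 6 H1, 14 H2A, 17 H2B, 10 H3 and 12 H4 genes. In the mm10 build 49 of the 59 lie on chromosome 13, 6 on chromosome 3, 3 on chromosome 11 and 1 on chromosome 6, and none lies on chromosome 5. The 9 genes left out (Hist1h2ao, Hist1h2ap, Hist1h2bq, Hist1h2br, Hist1h4m, Hist2h2aa1, Hist2h2aa2, Hist2h3c1 and Hist2h3c2) had 0 counts in every library.

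Histone proteins package DNA: H2A, H2B, H3 and H4 form the core of the nucleosome, and H1 binds the linker between nucleosomes. The clustered genes are made mainly in S phase, when new DNA needs new histones. Many replacement histones, such as H3f3a, but not all of them, are made throughout the cell cycle, and their genes lie elsewhere. Clustered histone mRNAs usually end in a short stem-loop in place of a poly(A) tail, and the stem-loop binding protein Slbp holds it during processing, translation and decay. In the intestine, dividing cells sit in the crypts and in adenomas, while the villus epithelium no longer divides. The libraries were made from total RNA after removal of ribosomal RNA, without selection for poly(A), so that RNA with either kind of end could be read.

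The stem-loop was searched in the annotated transcripts (GENCODE M21, mm10), since it is the feature that separates these mRNAs from others. Of the 59 genes, 39 had a stem-loop in the 3′ end of at least 1 annotated transcript, and it began 22 to 55 bases after the stop codon (median 32). The loop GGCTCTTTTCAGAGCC was the most frequent, in 20 genes, 3 of H1, 6 of H2A, 8 of H2B and 3 of H3. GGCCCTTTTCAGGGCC was found in 6 genes, all of H4. Below, capitals mark the stem-loop and small letters the 5 bases on either side, for genes on which the results turn.
Hist1h1c: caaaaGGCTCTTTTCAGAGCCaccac
Hist1h2ac: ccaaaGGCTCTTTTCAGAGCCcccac
Hist2h2ac: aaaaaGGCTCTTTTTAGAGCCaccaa
Hist1h2bb: ccaaaGGCTCTTTTAAGAGCCaccca
Hist1h3f: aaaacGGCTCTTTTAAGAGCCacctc
Hist1h4d: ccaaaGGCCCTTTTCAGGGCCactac
Hist1h4j: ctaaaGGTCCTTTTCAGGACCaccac
Many annotated transcripts end too early to hold a loop. Among the 25 genes with at least 100 annotated bases after the stop codon, 22 had a loop there and 3 (Hist1h2bc, Hist1h2bp and Hist2h2be) did not. Hist1h2bp has one in its shorter transcript. The transcripts of Hist1h2bc and Hist2h2be run on for 742 and 2192 bases after the stop codon with no loop.

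The study asked how a chromosome 5 from another strain modifies intestinal tumours of Apc Min mice, which carry an adenoma-inducing allele of the tumour suppressor Apc. Adenoma and normal mucosa from mice with the Apc Min allele (called Min mucosa), and mucosa from wild-type mice, all aged 15 to 19 weeks, were sequenced in triplicate. The tested backgrounds were PWD/Ph (PWD, wild-type mucosa only), B6xPWD, the strain C5 with the PWD/Ph chromosome 5 on C57BL/6, and C5F1, the cross of C57BL/6 and C5, and all were set against C57BL/6 (B6). Organoids (epithelial cultures) with Apc Min genotype from B6 and C5 were either treated with 5-aza-cytidine (AZA), a cytidine analogue that inhibits DNA methyltransferases, or left as controls, in 2 libraries for each of the 4 groups. Every adenoma, Min mucosa and organoid group therefore carried the Apc Min allele, and wild-type mucosa did not. The age of 15 to 19 weeks is given for the organoid libraries too. The tissue from which the organoids came, the dose and time of AZA and the sex of the mice were not given in the sources used here. Nothing in the labels says that replicate libraries stem from different mice or cultures, and p-values then cover only the spread among these libraries, which may be technical.

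Gene counts ranged from 2726500 to 20070700 in the 39 tissue libraries and from 4389900 to 8373760 in the 8 organoid libraries. The clustered histone genes took 3144 to 77199 of these counts in a tissue library and 9681 to 59128 in an organoid library. The ribosomal precursor Rn45s held 16.4 to 72.7% of a tissue library and 0.760 to 1.61% of an organoid library. Its share exceeded 60% in 2 libraries, B6 wild-type mucosa 3 (61.0%) and C5F1 Min mucosa 1 (72.7%). The epithelial markers Epcam and Cdh1 were read in every tissue and organoid library, at 655 CPM or more for Epcam and 406 CPM or more for Cdh1. In organoids the summed levels of markers of smooth muscle, fibroblasts, endothelium and lymphocytes were below 10 CPM in every library. Levels are given as CPM, the normalised count of a gene over the total of all gene counts, and changes are on the log2 scale with their standard error (SE). A gene was called at an adjusted p under 0.05.

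Copies of a type resemble each other, which limits how reads can be assigned to one of them. The median identity between coding sequences was 97.4% within H2A, 96.8% within H2B, 97.5% within H3 and 93.9% within H4. For each gene, the share of 36-base windows of its annotated transcripts that were unique to that gene was taken. Its median was 46.9% over the 59 genes described and 6.29% over the 9 genes at 0 counts. The read length was not given, so that 36 bases may not match it. Hist1h2ao and Hist1h2ap, Hist1h2bq and Hist1h2br, Hist2h2aa1 and Hist2h2aa2, and Hist2h3c1 and Hist2h3c2 are identical in their coding sequence, and Hist1h4m is identical to Hist1h4n. Hist2h2bb and Hist2h3b had no unique window, because each overlaps the annotated gene Gm20628. Values of near-identical copies are therefore uncertain where reads could have been split between them.

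Summed over the 59 genes, AZA organoids had the lowest level of all groups. The sum was 1163 ± 56.9 CPM (SD, n = 4) in AZA organoids and 3732 ± 135 CPM (n = 4) in control organoids, a ratio of control over AZA of 3.21. Adenomas averaged 3117 ± 675 CPM (n = 12), Min mucosa 2866 ± 374 CPM (n = 12) and wild-type mucosa 2793 ± 531 CPM (n = 15). The ranges of the 3 tissues overlapped, with adenoma at 2233 to 4725 CPM, Min mucosa at 2292 to 3663 CPM and wild-type mucosa at 1972 to 3773 CPM. The organoid ranges did not overlap, with 1089 to 1221 CPM after AZA and 3559 to 3874 CPM in controls.

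**Figure D1:**
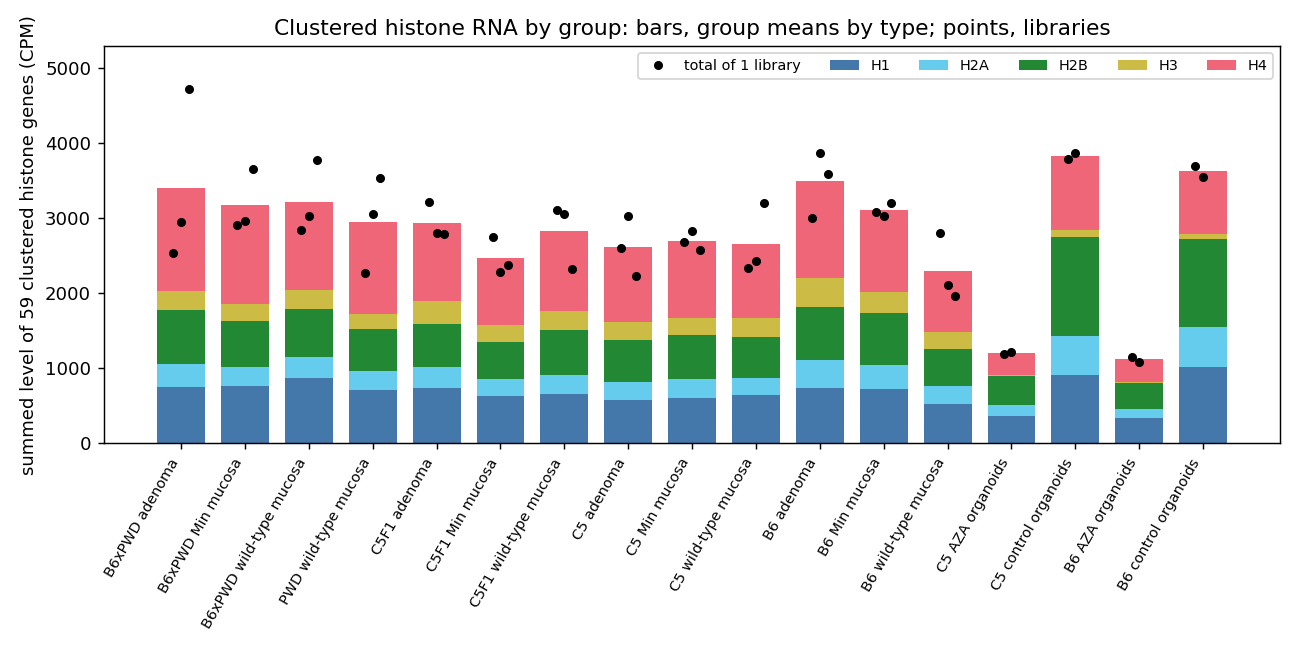
Summed level of the 59 clustered histone genes in the 17 groups, in CPM. Bars are group means stacked by histone type and points are the totals of single libraries; the 4 AZA libraries lie between 1089 and 1221 CPM, and the tissue libraries between 1972 and 4725 CPM.

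Nearly the whole set was lower after AZA. Of the 54 clustered histone genes tested in organoids, 46 were lower and 1 was higher after AZA, averaged over B6 and C5. Across all 13395 genes tested, 13.5% were lower and 15% were higher. The median change of the 54 was -1.81, against 0.04 over all genes. In 45 of the 54 every AZA library lay below every control library, in 1 every AZA library lay above, and in 8 the groups overlapped. In B6 alone 33 were lower and none higher, beside 6.91% and 9.2% of all genes. In C5 alone 39 were lower and none higher, beside 6.49% and 8.06% of all genes. When the response of C5 to AZA was set against that of B6, edgeR called 0 of the 54 and 0% of all genes, with 7 of the 54 at an unadjusted p under 0.05, and DESeq2 also called 0. The share of reads that the counting step assigned to no gene also moved with treatment, at 55.2 to 63.5% of a library in AZA organoids and 46.4 to 55.3% in control organoids, and its part in the result was not tested.

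All 5 tested genes of H1, the linker histone, were lower after AZA. Hist1h1c had 122, 146, 150 and 154 CPM in AZA organoids, against 467, 451, 333 and 374 CPM in control organoids, a change of -1.46 ± 0.12 (adjusted p = 3.76e-07). Hist1h1b had 35.5, 41.5, 44.5 and 47.5 CPM in AZA organoids, against 176, 178, 188 and 198 CPM in control organoids, a change of -2.10 ± 0.12. The groups lay far apart for both genes, with narrow ranges within each. Hist1h1e averaged 85.6 ± 5.20 CPM after AZA and 167 ± 30.5 CPM in controls, and Hist1h1a averaged 38.2 ± 4.63 and 63.0 ± 8.70 CPM in the same order. The changes of Hist1h1e (-0.92 ± 0.12) and Hist1h1a (-0.68 ± 0.14) were the smallest falls among the 46.

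Of the H2A genes 12 of 13 were lower, with a median change of -2.09. Hist2h2ac had 25.8, 37.6, 40.5 and 34.8 CPM in AZA organoids, against 138, 124, 115 and 118 CPM in control organoids (change -1.80 ± 0.15, adjusted p = 4.91e-07). Hist1h2ai averaged 24.4 ± 3.49 CPM after AZA and 107 ± 13.9 CPM in controls, and Hist1h2ab averaged 9.51 ± 3.38 and 39.3 ± 3.46 CPM in the same order. No AZA library overlapped a control library in these 3 genes. Hist1h2ad, at 2.61 ± 1.66 CPM after AZA and 17.2 ± 3.80 CPM in controls, had the largest called change of the type (-2.70 ± 0.41). Hist1h2an, with 0.808 ± 1.26 CPM after AZA and 4.33 ± 2.44 CPM in controls, did not pass the test (change -2.32 ± 0.87, adjusted p = 0.0582).

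Of 14 H2B genes tested, 10 were lower, 1 was higher and 3 were not called. Hist2h2bb, the most read member in organoids, had 196, 198, 192 and 242 CPM in AZA organoids, against 711, 629, 643 and 752 CPM in control organoids (change -1.69 ± 0.12, adjusted p = 1.69e-07). Hist1h2bb had 48.3, 41.8, 62.9 and 74.1 CPM in AZA organoids, against 349, 281, 481 and 317 CPM in control organoids (change -2.64 ± 0.15, adjusted p = 1.87e-08). Both fell in every library, and Hist1h2bh, at 2.33 ± 2.33 CPM after AZA and 11.5 ± 1.57 CPM in controls, fell by a similar factor (-2.56 ± 0.37). Hist1h2bc had 47.4, 64.0, 48.5 and 44.6 CPM in AZA organoids, against 32.2, 39.4, 37.6 and 34.9 CPM in control organoids. It was the only member that rose (change 0.53 ± 0.15, adjusted p = 0.0168). The call was lost without B6 control library 1 (adjusted p = 0.0977) or B6 AZA library 2 (adjusted p = 0.120), and within B6 or C5 alone the adjusted p was 0.0531 and 0.239. Hist2h2be averaged 5.50 ± 3.27 CPM after AZA and 5.33 ± 0.733 CPM in controls, with overlapping groups and a change of 0.02 ± 0.44 (adjusted p = 0.983).

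Of the H3 genes 9 of 10, and of the H4 genes 10 of 12, were lower. Hist1h3e had 7.67, 5.76, 8.31 and 6.30 CPM in AZA organoids, against 13.9, 22.3, 25.7 and 26.5 CPM in control organoids (change -1.57 ± 0.24). Hist1h3f, read at 1.21 ± 1.06 CPM after AZA and 8.98 ± 2.55 CPM in controls, had a change of -2.71 ± 0.60 (adjusted p = 0.00335), and Hist1h3c, at 1.45 ± 1.02 and 9.85 ± 2.15 CPM in the same order, of -2.58 ± 0.42. Hist1h4d had 242, 163, 221 and 181 CPM in AZA organoids, against 544, 513, 618 and 646 CPM in control organoids (change -1.49 ± 0.13, adjusted p = 9.48e-07). Hist1h4c averaged 16.1 ± 3.87 CPM after AZA and 46.7 ± 11.1 CPM in controls, and Hist1h4h averaged 15.9 ± 3.79 and 49.4 ± 9.91 CPM in the same order. In all of these no AZA library reached the lowest control library. Hist1h3i, Hist1h4i and Hist1h4k were not called, and averaged 1.41 ± 0.293, 2.06 ± 0.577 and 3.71 ± 2.05 CPM in controls.

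**Figure D2:**
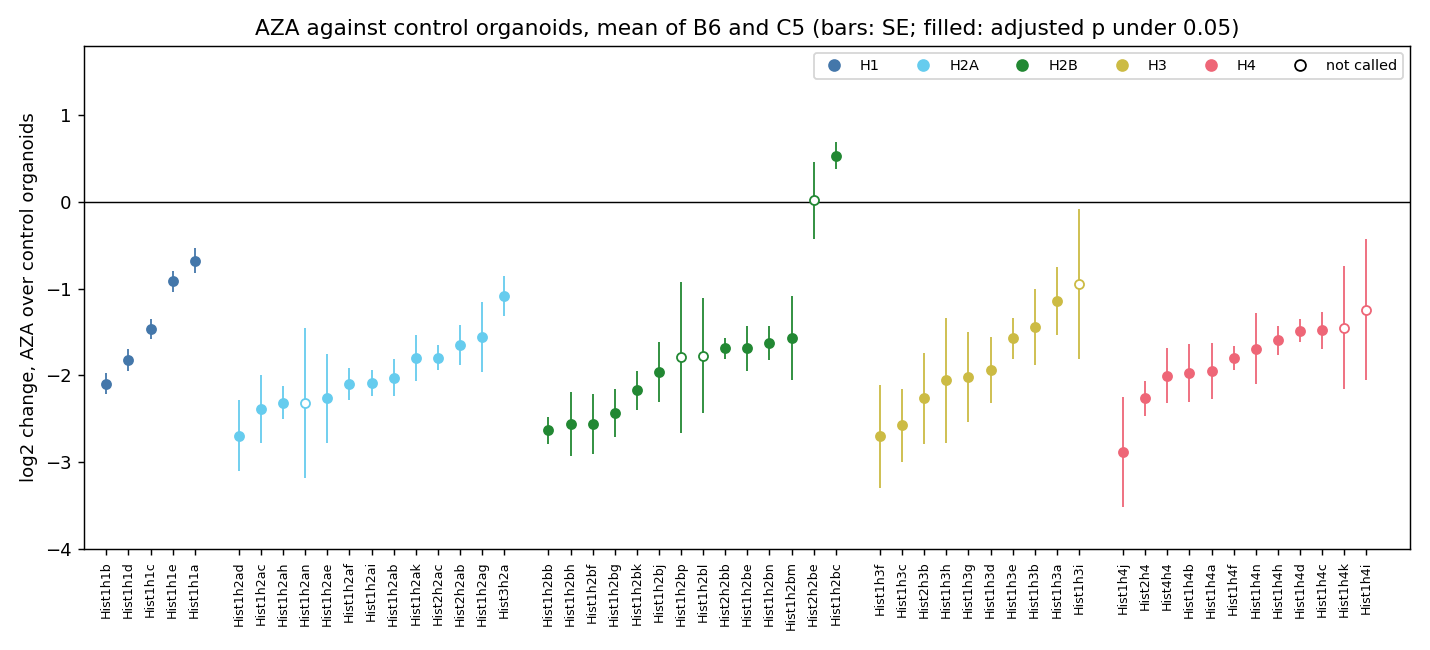
Log2 change of each of the 54 tested clustered histone genes in AZA over control organoids, mean of B6 and C5, with SE, ordered by change within a type. Filled points passed an adjusted p under 0.05: 46 lie below 0 and Hist1h2bc lies above it at 0.53, while Hist2h2be sits at 0.02.

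The order of the genes by level was largely kept under AZA. Spearman's rho between mean levels in AZA and control organoids was 0.967 over the 59 genes, as a description across genes that share libraries. The 5 genes with the most reads held 59.7% of the summed level after AZA and 59.3% in controls. H2A had 11.8 ± 0.710% of the sum in AZA organoids and 14.0 ± 0.756% in control organoids (SD, n = 4 each). H1 had 30.0 ± 1.89% after AZA and 25.9 ± 2.84% in controls, with overlapping ranges.

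Hist1h2bc and Hist2h2be are the tested genes whose long annotated end lacks a stem-loop in every transcript. Each also faces an H2A gene across a short stretch from which the pair is read in opposite directions. The 37 tested genes with a stem-loop had a median change of -1.94 under AZA, and 35 of them were lower, beside 46 of all 54 tested. Some genes whose annotated transcripts end too early to hold a loop were lower too, such as Hist1h1b (-2.10), Hist1h2ai (-2.09) and Hist2h2bb (-1.69). Others of this kind were not called, such as Hist1h4k (-1.45). A link between the annotated loop and the change was not tested. The set holds 11 H2A and H2B pairs that are read in opposite directions, with starts under 400 bases apart. Hist1h2ac, which faces Hist1h2bc at 240 bases, had 3.48, 0.781, 2.16 and 4.79 CPM in AZA organoids, against 15.8, 15.6, 12.98 and 16.5 CPM in control organoids (change -2.39 ± 0.39, against 0.53 for Hist1h2bc). Hist2h2ac, which faces Hist2h2be at 192 bases, changed by -1.80, against 0.02 for Hist2h2be. In these 2 pairs the H2A gene fell and its partner did not. In the other pairs with both genes tested, such as Hist1h2ad (-2.70) and Hist1h2bf (-2.56) or Hist1h2ae (-2.27) and Hist1h2bg (-2.43), the changes were alike in sign.

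The stretches between the starts of these 2 pairs are shown because the partners that share them changed differently (RefSeq, GRCm38.p6). The first lies at chr13:23683960-23684198 and the second at chr3:96220881-96221071, and both are written in the direction of the H2A gene, on the minus strand. Capitals mark, on either strand, the TATA box letters TATAAA, the CCAAT box letters and the octamer ATTTGCAT, which do not overlap here.
Hist1h2ac and Hist1h2bc: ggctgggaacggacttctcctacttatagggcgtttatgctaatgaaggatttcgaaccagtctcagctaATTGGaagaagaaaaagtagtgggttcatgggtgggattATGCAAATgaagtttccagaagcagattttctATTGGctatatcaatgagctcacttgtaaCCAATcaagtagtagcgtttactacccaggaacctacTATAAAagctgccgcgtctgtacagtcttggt
Hist2h2ac and Hist2h2be: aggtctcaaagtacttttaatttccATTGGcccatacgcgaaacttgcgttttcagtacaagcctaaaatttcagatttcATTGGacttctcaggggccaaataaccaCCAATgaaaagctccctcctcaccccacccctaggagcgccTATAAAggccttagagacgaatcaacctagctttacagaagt
The first stretch holds 1 TATA box match, 3 of the CCAAT box and 1 of the octamer, and the second holds 1 TATA box match and 3 of the CCAAT box. The TATAAA letters, known from the TATA box, were found in the promoters of 33 of the 53 clustered histone genes with a promoter entry (62.3%), and in 13.6% of all 32851 mouse promoters of the same length. CCAAT was found in 84.9% of the 53 and 37.4% of all. The octamer ATTTGCAT, known from octamer-binding factors such as Pou2f1, was found in 7 of 14 H2A, 7 of 14 H2B and 0 of the other promoters, 26.4% of the 53, against 1.74% of all. AAACACA was found in 5 of 6 H1 promoters and in 16.98% of the 53, against 7.18% of all. Paired H2A and H2B genes share the stretch between their starts, so that a match there, such as an octamer, can count for both.

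Genes of S phase, of histone mRNA processing and of histone chaperones were lower in part after AZA, and none of them was higher. S-phase genes were lower in 34 of 47 and higher in 0, with a median change of -0.89, among them Ccna2, a cyclin of S phase (-1.40 ± 0.12), and Rrm1, a subunit of ribonucleotide reductase (-1.36 ± 0.15). All 6 proliferation markers were lower (median -1.40), and their summed level was 563 to 824 CPM in AZA organoids and 1507 to 1958 CPM in control organoids. Fewer dividing cells and less of this RNA per dividing cell cannot be told apart in bulk libraries, here or in the other comparisons. Of the 20 genes of histone mRNA transcription and processing 9 were lower and 0 higher (median -0.52). Slbp averaged 53.5 ± 4.96 CPM after AZA and 88.8 ± 2.57 CPM in controls (-0.70 ± 0.12), and Eri1, an exonuclease that trims the stem-loop end, averaged 30.3 ± 5.32 and 66.7 ± 3.12 CPM in the same order (-1.10 ± 0.15). Histone chaperones were lower in 14 of 22 (median -0.63), with Nasp, a chaperone of H3 and H4 and of H1, at -1.31 ± 0.14.

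Replacement histones were lower in 5 of 9 tested genes and higher in 0 (median -0.55). Cenpa, the H3 variant of the centromere, had a change of -1.79 ± 0.18, H2afx of -1.38 ± 0.17 and H1f0 of -0.55 ± 0.13. Among 4 tested RNAs that lack a poly(A) tail for other reasons, Rmrp averaged 357 ± 43.8 CPM after AZA and 933 ± 253 CPM in controls (-1.35 ± 0.17), and Rpph1, the RNA of ribonuclease P, was also lower (-1.22 ± 0.19). Of 8 epithelial genes 4 were higher and 2 lower, with Vil1, a protein of the microvilli, at 785 ± 114 CPM after AZA and 320 ± 48.1 CPM in controls (1.32 ± 0.13). Markers of other cells were near 0, with summed levels of 1.76 to 5.17 CPM in AZA organoids and 0.590 to 3.86 CPM in control organoids for lymphocytes. For smooth muscle the sums were 3.53 to 6.48 CPM after AZA and 6.03 to 8.97 CPM in controls. Fibroblast and endothelial sums did not exceed 3.91 CPM in any organoid library.

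**Figure D3:**
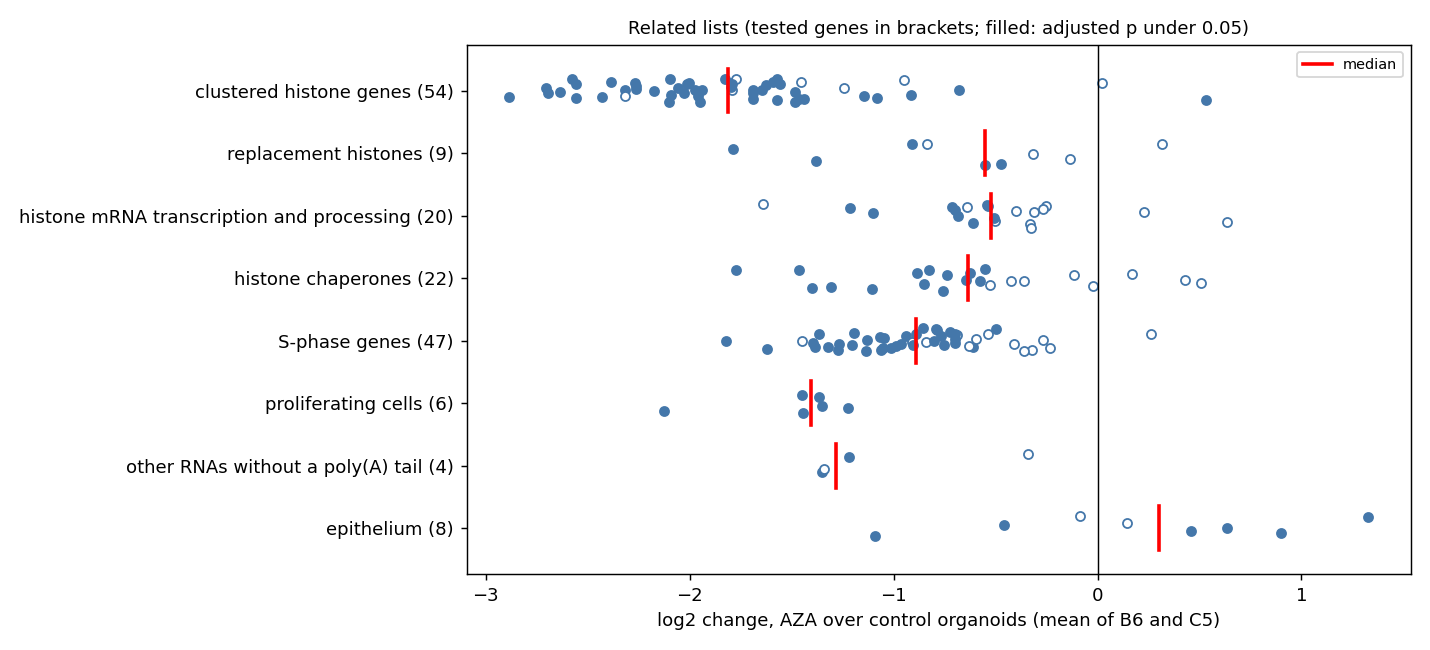
Log2 change in AZA over control organoids (mean of B6 and C5) of the tested genes of each list, with the number tested in brackets, filled points past an adjusted p under 0.05 and a red line at the median. The median is -1.81 for clustered histone genes, -0.89 for S-phase genes and -0.55 for replacement histones.

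The strains differed in single copies more than in the sum. In wild-type mucosa 8 of 56 tested clustered histone genes were higher and 9 lower in PWD than in B6, beside 9.96% higher and 8.79% lower of all 13657 genes tested. The summed level was 2956 ± 639 CPM in PWD and 2297 ± 444 CPM in B6 (SD, n = 3 each), with overlapping ranges. In B6xPWD 8 were higher and 3 lower than in B6, beside 5.29% and 4.31% of all genes, and the sum was 3218 ± 490 CPM. Both comparisons use the same 3 B6 libraries. Reads of all strains were counted against mm10, the C57BL/6 reference, and the part that sequence differences between strains and near-identical copies have in these values was not tested.

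An H3 gene showed the widest gap. Hist1h3f had 0.283, 0.485 and 0.335 CPM in PWD, 17.8, 24.3 and 35.4 CPM in B6xPWD, and 66.6, 48.9 and 47.7 CPM in B6. The 3 backgrounds did not overlap, and the change was -6.20 ± 0.34 in PWD (adjusted p = 2.25e-14) and -1.03 ± 0.23 in B6xPWD. The H3 gene Hist2h3b averaged 5.44 ± 4.74 CPM in PWD and 35.1 ± 6.59 CPM in B6 (-2.62 ± 0.41). Hist1h3e, another H3 gene, was higher, at 97.7 ± 19.7 CPM in PWD and 43.3 ± 8.69 CPM in B6 (1.18 ± 0.27).

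Among H4 genes 4 were higher and 2 lower in PWD. Hist1h4a had 176, 363 and 349 CPM in PWD, 102, 121 and 216 CPM in B6xPWD, and 26.7, 30.9 and 52.1 CPM in B6 (change 3.07 ± 0.35 in PWD and 2.05 ± 0.34 in B6xPWD). Hist1h4i had 25.8, 40.0 and 37.6 CPM in PWD, 17.8, 21.4 and 26.3 CPM in B6xPWD, and 8.22, 5.18 and 6.90 CPM in B6 (2.32 ± 0.28 in PWD and 1.68 ± 0.28 in B6xPWD). For both genes every PWD and every B6xPWD library lay above every B6 library. Hist4h4, on chromosome 6, averaged 160 ± 39.9 CPM in PWD, 110 ± 41.3 CPM in B6xPWD and 51.0 ± 24.2 CPM in B6. Hist1h4j had 3.68, 5.50 and 6.37 CPM in PWD, 24.9, 39.1 and 55.9 CPM in B6xPWD, and 129, 88.8 and 50.2 CPM in B6 (-4.01 ± 0.42 in PWD). Hist1h4f averaged 10.9 ± 3.91 CPM in PWD and 88.7 ± 22.2 CPM in B6 (-2.93 ± 0.30), with 76.7 CPM in B6xPWD. Copies of the same histone type thus moved in opposite directions. The share of H4 in the summed level was 41.4 ± 3.92% in PWD and 35.2 ± 2.31% in B6, with overlapping ranges.

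How far these H4 copies differ is shown by coding bases 61 to 120 of the mm10 transcripts, with capitals where a copy differs from Hist1h4d, a gene called in neither comparison.
Hist1h4d: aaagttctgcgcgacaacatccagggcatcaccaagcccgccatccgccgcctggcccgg
Hist1h4a: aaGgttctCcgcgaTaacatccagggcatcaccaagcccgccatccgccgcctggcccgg
Hist1h4i: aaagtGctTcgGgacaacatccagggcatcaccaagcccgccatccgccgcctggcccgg
Hist1h4j: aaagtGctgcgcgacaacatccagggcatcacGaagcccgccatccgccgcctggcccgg
Hist1h4f: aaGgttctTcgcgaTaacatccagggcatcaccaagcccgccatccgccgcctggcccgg
Hist4h4: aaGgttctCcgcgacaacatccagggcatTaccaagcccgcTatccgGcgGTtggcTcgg
In these 60 bases Hist1h4a, Hist1h4f and Hist1h4i differ from Hist1h4d at 3 positions each, Hist1h4j at 2 and Hist4h4 at 8. Copies can be closer to each other than to Hist1h4d. Hist1h4a and Hist1h4f, which moved in opposite directions in PWD, differ here only in a base that is C in Hist1h4a and T in Hist1h4f. Over the whole coding sequence of 309 bases Hist1h4a differs from Hist1h4d at 21 positions and Hist4h4 at 40.

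Of the H2A genes 2 were higher and 4 lower in PWD. Hist1h2ai had 60.1, 92.4 and 91.5 CPM in PWD, 53.4, 55.2 and 69.6 CPM in B6xPWD, and 28.9, 21.5 and 22.0 CPM in B6 (1.75 ± 0.25 in PWD and 1.30 ± 0.25 in B6xPWD). Hist1h2ag averaged 3.80 ± 1.70 CPM in PWD, 9.55 ± 1.02 CPM in B6xPWD and 19.8 ± 7.24 CPM in B6 (-2.31 ± 0.31 in PWD). Hist1h2ad had 0 counts in all 3 PWD libraries and 3.57 ± 1.26 CPM in B6, which is at least 4.57-fold lower against a floor of 3 counts per library. Among H1 genes Hist1h1c was higher in both, at 250 ± 59.2 CPM in PWD, 303 ± 35.3 CPM in B6xPWD and 148 ± 18.6 CPM in B6. Hist1h2ac was also higher in both, at 28.6 ± 14.4 CPM in PWD, 28.8 ± 12.1 CPM in B6xPWD and 13.3 ± 2.82 CPM in B6. H2B had no gene higher in PWD.

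The count in B6xPWD depended on single libraries. Without B6 wild-type library 2 it fell to 6 genes. Hist1h4j lost its call in B6xPWD when B6 library 1 or 2 or B6xPWD library 1 or 2 was left out (adjusted p up to 0.227), Hist1h2ag without B6 library 1 or B6xPWD library 1 or 2 (up to 0.180), Hist4h4 without B6 library 2 or 3 or B6xPWD library 3 (up to 0.189) and Hist1h2ac without B6 library 1 or 2 or B6xPWD library 3 (up to 0.166). S-phase genes were lower in 5 of 47 and higher in 1 in PWD, with Pcna, the sliding clamp of DNA polymerase, at -1.81 ± 0.28. Markers of other cells moved too. In PWD 3 of 10 tested lymphocyte genes were lower (summed 35.5 to 121 CPM in PWD and 82.2 to 254 CPM in B6), 2 of 6 fibroblast genes were higher (381 to 629 CPM and 249.3 to 311 CPM in the same order), and 2 of 4 endothelial genes were higher (65.4 to 87.4 CPM and 46.4 to 54.0 CPM). Their part in the histone values was not tested.

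**Figure D4:**
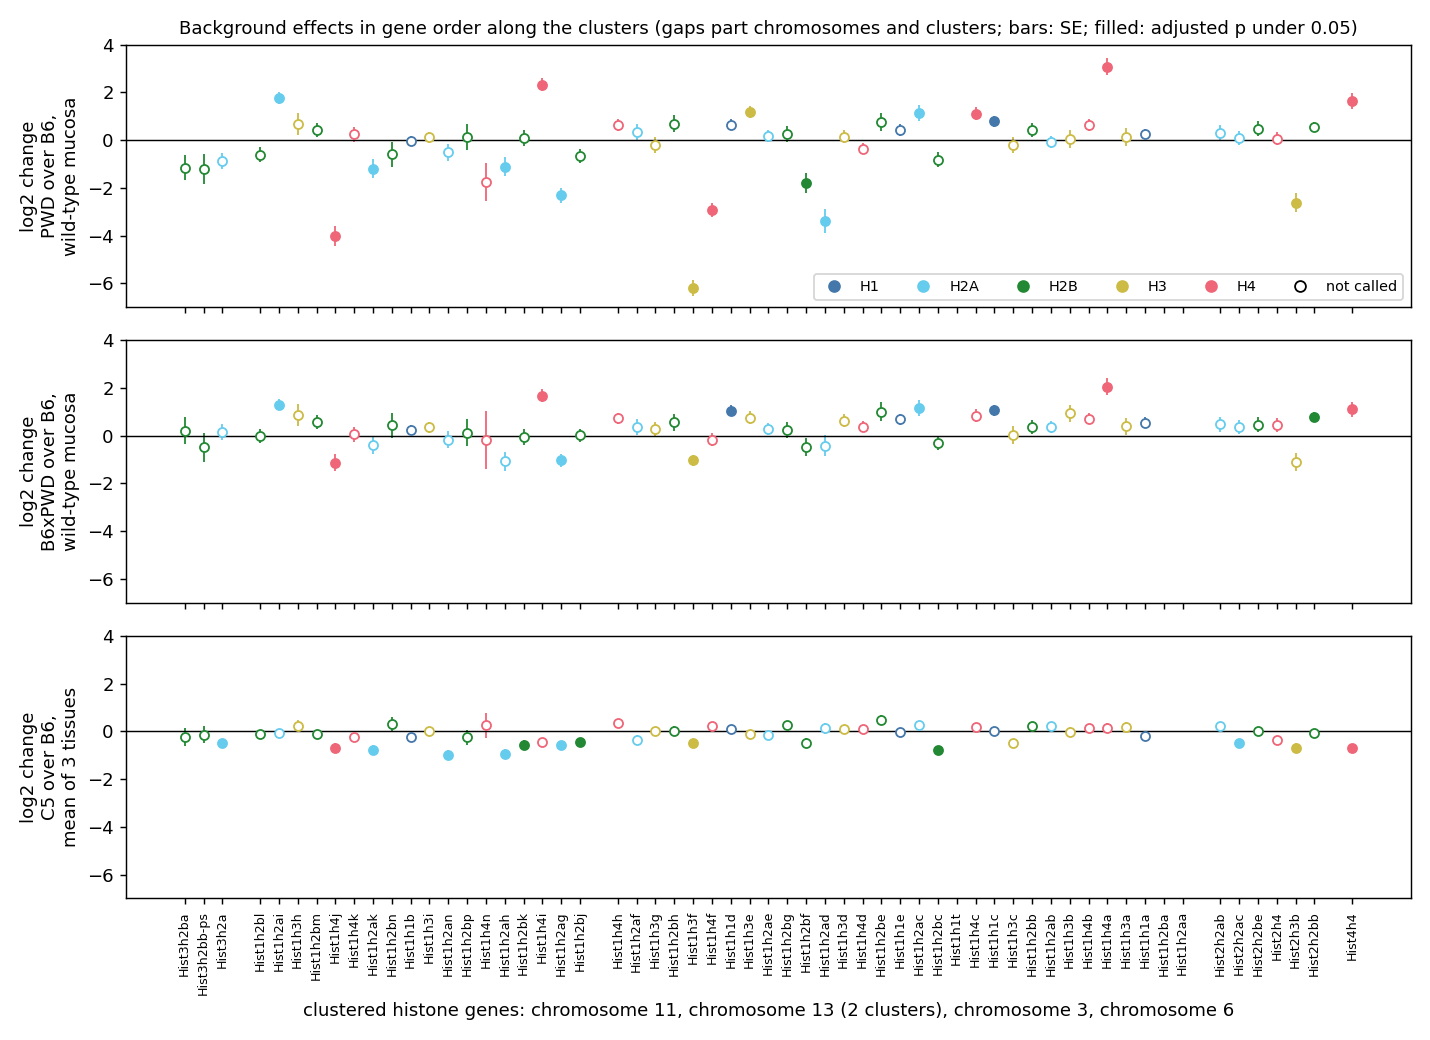
Log2 change of each clustered histone gene in the order of the genes along the chromosomes, for PWD over B6 and B6xPWD over B6 in wild-type mucosa and C5 over B6 as the mean of 3 tissues, with SE and filled points past an adjusted p under 0.05. PWD shows changes from -6.20 (Hist1h3f) to 3.07 (Hist1h4a), and the called changes in C5 all lie below 0.

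In C5 mice the clustered histone genes came from the B6 genome by the labels, since chromosome 5 holds none of them. Averaged over adenoma, Min mucosa and wild-type mucosa, 13 of 56 genes were lower in C5 than in B6 and 0 were higher, beside 8.36% lower and 10.3% higher of all genes. The median change of the 56 was -0.08. Hist1h2ah, an H2A gene, had 15.7, 25.8 and 13.8 CPM in C5 adenoma, against 46.3, 59.8 and 38.6 CPM in B6 adenoma. In Min mucosa it had 16.3, 26.7 and 23.7 CPM in C5, against 69.7, 43.6 and 34.3 CPM in B6, and in wild-type mucosa 14.3, 19.2 and 38.3 CPM in C5, against 53.7, 34.6 and 6.90 CPM in B6. The groups were apart in adenoma and Min mucosa and overlapped in wild-type mucosa (change over the 3 tissues -0.95 ± 0.22, adjusted p = 0.00343). Hist1h2an averaged 5.33 ± 1.78 CPM in C5 and 10.7 ± 3.96 CPM in B6 (-0.98 ± 0.20), and Hist1h2ak averaged 16.0 ± 5.44 and 28.3 ± 8.999 CPM in the same order (-0.79 ± 0.22, SD, n = 9 each). Hist4h4 averaged 48.9 ± 12.2 CPM in C5 and 85.1 ± 31.6 CPM in B6 (-0.71 ± 0.19). Hist1h2bc averaged 68.3 ± 17.2 CPM in C5 and 123 ± 66.8 CPM in B6 (-0.79 ± 0.18), with a B6 Min mucosa library at 278 CPM.

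Of the 13 genes lower in C5, 7 were among the 18 in the chromosome 13 cluster at 21715711 to 22043658 and 2 among the 28 tested in the cluster at 23531044 to 23934913, a split noticed after the values were seen. In control organoids the same 13 genes were lower in C5 than in B6 in 4 cases and higher in 9, with a median of 0.38 and a lowest adjusted p of 0.876. For all 54 genes in control organoids edgeR called 0 between C5 and B6, with 2 at an unadjusted p under 0.05, beside 0.209% of all genes called, and DESeq2 called 0. Replacement histones were lower in 6 of 11 in C5 tissue, among them H2afy (-0.53 ± 0.11) and H2afx (-0.66 ± 0.20). S-phase genes were lower in 13 of 47 and higher in 2, with Pcna at 37.0 ± 7.61 CPM in C5 and 68.9 ± 24.3 CPM in B6 (-0.84 ± 0.15). Mki67, a marker of dividing cells, was higher (0.43 ± 0.14), and 1 lymphocyte gene, Mzb1, was lower of the 10 tested.

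In adenomas the clustered histone genes moved little beside other genes. Averaged over the 4 backgrounds, 8 of 56 were higher and 1 lower in adenoma than in Min mucosa, that is 14.3% and 1.79% of them, below the 23.7% higher and 21.5% lower of all genes. The median change was 0.19, against 0.01 over all genes, and 46 of the 56 fitted changes were above 0. By background, 41 were above 0 in B6, 48 in C5F1, 46 in B6xPWD and 20 in C5. The medians were 0.22, 0.38, 0.22 and -0.05 in the same order. H3 had 4 of 10 genes higher. Hist1h3e had medians of 67.9 CPM (adenoma) and 49.7 CPM (Min mucosa), with means of 72.5 ± 24.4 and 53.4 ± 12.7 CPM in the same order and overlapping ranges (0.42 ± 0.13, adjusted p = 0.00854). Hist1h3c (0.47 ± 0.16), Hist1h3g (0.42 ± 0.16) and Hist1h3f (0.28 ± 0.11) were the other 3. Of the H2A genes Hist1h2ai was higher (0.30 ± 0.12).

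H2B had 3 genes higher and 1 lower in adenoma. Hist3h2ba, on chromosome 11, averaged 3.95 ± 2.43 CPM in adenomas, against 1.95 ± 1.01 CPM in Min mucosa (0.94 ± 0.22, adjusted p = 0.000977). Its neighbour Hist3h2bb-ps, named as a pseudogene, averaged 2.91 ± 1.47 and 1.72 ± 0.989 CPM in the same order (0.73 ± 0.28). Both were read at low levels, and their groups overlapped. Hist2h2bb averaged 237 ± 48.2 CPM in adenomas, against 196 ± 29.5 CPM in Min mucosa (0.26 ± 0.10). Hist1h2bc averaged 66.6 ± 22.7 CPM in adenomas, against 93.1 ± 65.8 CPM in Min mucosa (-0.41 ± 0.15), and without B6 Min mucosa library 1, at 278 CPM, its change was -0.27 (adjusted p = 0.112).

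The adenoma count rested on few libraries and on small effects. Leaving out 1 library at a time gave 4 to 14 called genes. The count was 14 without B6xPWD adenoma 1, 5 without B6xPWD Min mucosa 2, and 4 without B6xPWD adenoma 3, C5F1 adenoma 1, C5F1 Min mucosa 3, C5 adenoma 2 or C5 Min mucosa 3. Same-numbered adenoma and Min mucosa libraries deviated together, and with the replicate number as a block 9 genes were higher and 2 lower. Hist1h2ai (adjusted p = 0.0647), Hist1h3c (0.0505), Hist2h2bb (0.0517) and Hist3h2bb-ps (0.0538) then lost their calls. Hist1h3a, Hist1h3d, Hist1h4a, Hist1h4j and Hist3h2a were called as higher (0.22 to 0.35, adjusted p 0.0224 to 0.0457) and Hist1h4c as lower (-0.21, adjusted p 0.0472). The calls of Hist3h2ba, Hist1h3e, Hist1h3f, Hist1h3g and Hist1h2bc were kept.

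Within backgrounds fewer genes passed. In B6 3 genes were higher and 0 lower in adenoma, beside 13% and 13.7% of all genes, namely Hist3h2ba (1.25), Hist1h3e (0.73) and Hist1h3d (0.68). That count was 5 without B6 adenoma 1, 1 without B6 adenoma 2, B6 adenoma 3 or B6 Min mucosa 2, and 0 without B6 Min mucosa 1. In B6xPWD only Hist3h2ba was higher (1.72), beside 9.43% higher and 6.98% lower of all genes, and not so without adenoma library 3 or Min mucosa library 1. In C5F1 edgeR called 0 genes, with 4 at an unadjusted p under 0.05 and 0 called by DESeq2, beside 10.9% higher and 9.66% lower of all genes, and without C5F1 Min mucosa 1 the count was 1. In C5 edgeR called 0, with 0 at an unadjusted p under 0.05 and 0 called by DESeq2, beside 2.59% higher and 0.176% lower of all genes.

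No difference of the adenoma effect between backgrounds was called by edgeR or DESeq2. For C5 against B6, 50 of the 56 differences were below 0, with a median of -0.29, against 0.01 over all genes. For C5F1 against B6 19 were below 0 (median 0.09), and for B6xPWD against B6 33 (median -0.06). These are descriptions across genes that share libraries. For C5 against B6, C5F1 against B6 and B6xPWD against B6 the counts of the 56 at an unadjusted p under 0.05 were 0, 0 and 2, and 0.11%, 0% and 0.63% of all genes were called. Other genes of proliferation were higher in adenoma over the 4 backgrounds. S-phase genes were higher in 31 of 47 and lower in 1, with a median of 0.43, among them Mcm2, a subunit of the replicative helicase (0.82 ± 0.08), and 4 of 6 proliferation markers were higher. Of the processing genes 10 of 20 were higher and 1 lower, with Slbp at 13.1 CPM in adenomas, against 13.8 CPM in Min mucosa (-0.08 ± 0.09, adjusted p = 0.530). Histone chaperones were higher in 13 of 22 and lower in 2, and replacement histones in 2 and 1 of 11. All 6 smooth muscle genes were lower (summed 28.9 to 721 CPM in adenomas, against 77.9 to 1629 CPM in Min mucosa), 3 of 6 fibroblast genes were higher (176 to 831 CPM and 193 to 575 CPM in the same order), and 2 of 10 lymphocyte genes were lower. The part of these cells in the histone values was not tested.

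Min mucosa and wild-type mucosa of the 4 shared backgrounds could not be separated by these genes. edgeR called 0 of the 56, with 1 at an unadjusted p under 0.05, and DESeq2 called 0, beside 0.00732% of all genes. The changes of the 56 lay between -0.37 and 0.48, with a median of 0.04. H3 took 8.44 ± 1.05% of the summed level in Min mucosa (SD, n = 12) and 8.66 ± 1.48% in wild-type mucosa (n = 15).

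Control organoids and Min mucosa of B6 and C5 differed in the level of many members, as they did in many other genes. Of the 56 genes tested in a fit over all 47 libraries, 12 were higher and 26 lower in organoids, beside 32.8% higher and 41% lower of all 15202 genes. The median change was -0.53 for the set and -0.14 over all genes. With DESeq2, and likewise with its size factors in edgeR, 11 were higher and 28 lower. Spearman's rho between the mean levels of control organoids and Min mucosa of all 4 backgrounds was 0.749 over 59 genes, against 0.995 between adenoma and Min mucosa, as descriptions across genes. The 5 genes with the most reads held 59.3% of the sum in control organoids and 32.4% in Min mucosa of all 4 backgrounds. Rn45s took at most 1.61% of counts in organoids and at least 16.4% in tissue, and its part in this comparison cannot be told apart from that of culture.

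H3 and H4 genes were mostly lower in organoids. H3 had 8 of 10 genes lower and 0 higher, and its share of the summed level was 2.10 ± 0.375% in control organoids and 8.44 ± 1.05% in Min mucosa of all 4 backgrounds (SD, n = 4 and n = 12). Hist1h3f had 5.26, 9.50, 10.997 and 10.2 CPM in control organoids, against 68.6, 65.3 and 65.9 CPM in B6 and 48.0, 54.9 and 42.9 CPM in C5 Min mucosa (-2.65 ± 0.26, adjusted p = 3.03e-11). Hist1h3i averaged 1.41 ± 0.293 CPM in control organoids and 15.8 ± 3.12 CPM in Min mucosa (-3.22 ± 0.20), and Hist2h3b averaged 5.65 ± 1.62 and 35.1 ± 18.4 CPM in the same order (-2.50 ± 0.32). None of the 4 organoid libraries overlapped the 6 mucosa libraries in these genes.

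H4 had 9 genes lower and 2 higher. Hist1h4j had 2.88, 1.71, 2.87 and 5.31 CPM in control organoids, against 158, 131 and 91.7 CPM in B6 and 54.2, 64.4 and 90.6 CPM in C5 Min mucosa (-4.79 ± 0.35, adjusted p = 9.29e-15). Hist1h4k averaged 3.71 ± 2.05 CPM in control organoids and 75.5 ± 15.1 CPM in Min mucosa (-4.24 ± 0.37). Hist1h4n went the other way, with 9.54, 17.7, 25.1 and 12.9 CPM in control organoids, against 0.143, 0.464 and 2.52 CPM in B6 and 3.13, 3.52 and 0.280 CPM in C5 Min mucosa (3.18 ± 0.55). Hist1h4n shares its coding sequence with Hist1h4m, so that its reads could belong to either.

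Genes of H2A and H2B were among those higher in organoids. Hist2h2ac had 138, 124, 115 and 118 CPM in control organoids, against 33.0, 30.9 and 27.5 CPM in B6 and 20.3, 24.9 and 16.5 CPM in C5 Min mucosa (2.28 ± 0.21). Hist2h2ab averaged 32.3 ± 7.14 CPM in control organoids and 5.63 ± 1.05 CPM in Min mucosa (2.46 ± 0.21), and Hist1h2ad averaged 17.2 ± 3.80 and 2.59 ± 0.835 CPM in the same order (2.62 ± 0.33). Hist1h2bb averaged 357 ± 87.1 CPM in control organoids and 98.7 ± 32.1 CPM in Min mucosa (1.85 ± 0.22). Every organoid library lay above every mucosa library in these 4 genes. H2B took 33.6 ± 1.93% of the summed level in control organoids and 20.96 ± 2.00% in Min mucosa of all 4 backgrounds.

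**Figure D5:**
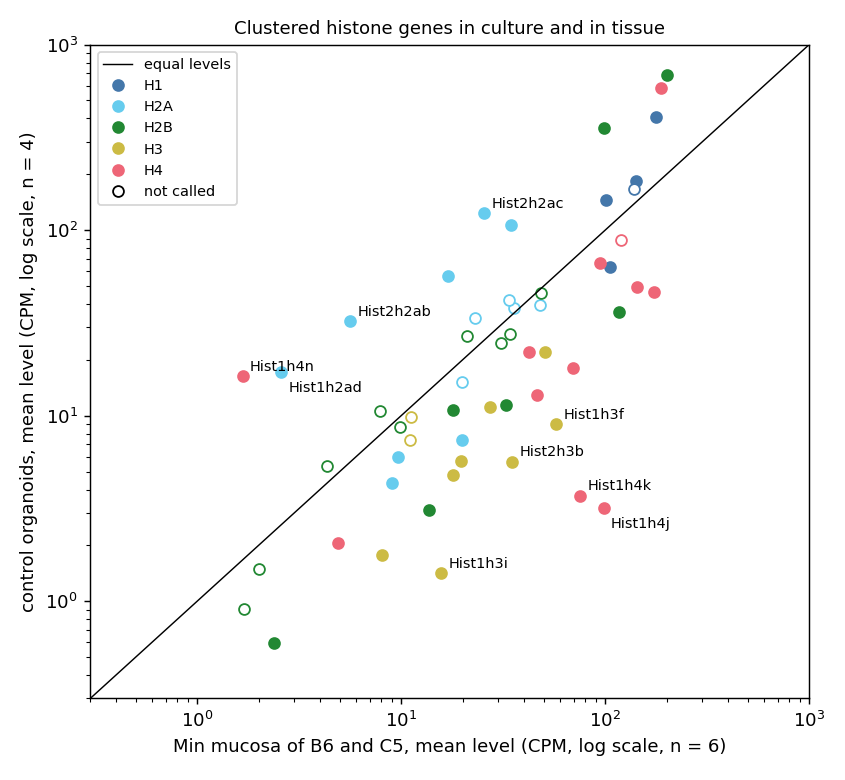
Mean level of each tested clustered histone gene in control organoids (n = 4, vertical axis) and in Min mucosa of B6 and C5 (n = 6, horizontal axis), in CPM on log scales, with a line of equal levels and filled points past an adjusted p under 0.05. Hist1h4j and Hist1h4k lie far below the line, at 3.19 and 3.71 CPM in organoids, and Hist1h4n lies above it.

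Most genes of S phase, of histone mRNA processing and of histone chaperones were higher in organoids than in Min mucosa. S-phase genes were higher in 36 of 47 and lower in 3, and all 6 proliferation markers were higher (median 2.08). Of the 20 genes of histone mRNA transcription and processing 13 were higher and 2 lower (median 0.90), and of the 22 histone chaperones 14 were higher and 3 lower (median 1.45). Slbp averaged 88.8 ± 2.57 CPM in control organoids and 13.03 ± 1.33 CPM in Min mucosa (2.74 ± 0.13), and the chaperone Nasp averaged 291 ± 28.2 and 11.3 ± 2.25 CPM in the same order (4.66 ± 0.22). Other RNAs without a poly(A) tail were lower in 3 of 5, with Rmrp at 933 ± 253 CPM in control organoids and 7524 ± 2181 CPM in Min mucosa (-2.98 ± 0.27). Markers of other cells were lower, in 6 of 6 smooth muscle, 6 of 6 fibroblast, 4 of 4 endothelial and 8 of 11 lymphocyte genes, and Des, Cd4 and Cd8a had 0 counts in control organoids. The part of these cells in the histone values of mucosa was not tested.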

How the data were processed

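Counts of reads per gene in 47 libraries were deposited by the authors as 1 table. Per the labels' protocols, total RNA was depleted of ribosomal RNA and sequenced from one end, and per the submitters' processing notes BWA, HTSeq and the mm10 build were used. Read length, strand setting and tool versions are not given in the sources used here. Summary categories of the counting step held 40.7 to 63.5% of a library and were left out of library sizes and tests.

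Tissue (39 libraries, 13 groups) and organoids (8 libraries, 4 groups) had separate fits in edgeR 4.0.16 (R 4.3.3), and a joint one where organoids were set against mucosa. The fits used TMM normalisation, a filter on low counts (filterByExpr, minimum count 10, minimum total 15), a prior count of 2 and the quasi-likelihood F-test. Benjamini-Hochberg adjustment ran over all genes tested, in 18 comparisons, and every adjusted p printed comes from this test unless DESeq2 1.42.0 is named. Printed levels are CPM on TMM normalisation over all 47 libraries. On counts simulated for the AZA comparison (12749 genes), 77.1% of genes changed by 2 on the log2 scale and 54.1% of those changed by 1 were recovered. Of the calls 7.30% were false. For PWD against B6 (13367 genes) 86.7% and 34.7% were recovered in the same order, and 3.25% of the calls were false.

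The members and gene lists were chosen with earlier results of these data known. Text names the 3 genes of each type with the highest level, every called member up to 10 in a comparison and, above 10, the 5 largest rises and falls with at least 5 CPM on the higher side. Of the related lists it names up to 4 called genes with the smallest adjusted p, and Slbp and markers of other cells beside them. Names and sequences come from RefSeq (GRCm38.p6) and GENCODE M21, where all 68 symbols matched.

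Replicate numbers in the labels were checked as pairs: same-numbered adenoma and Min mucosa libraries deviated together in 12 of 12 pairs (correlation 0.169 to 0.607). The labels do not say whether a shared number means a shared mouse or shared handling, and the correlations cannot tell these apart. The main fits did not use the replicate number. Alternatives were other size factors, no filter, DESeq2, Rn45s left out, the compared groups alone, a replicate block and leaving out each library. Leaving out the libraries above 60% Rn45s was chosen after seeing the data. The floor of 3 counts covers counting error only.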

Additional observations from a re-analysis of the deposited data

How the results depend on the processing

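Leaving out 1 library at a time gave 4 to 14 called clustered histone genes for adenoma against Min mucosa over the 4 backgrounds, 0 to 5 in B6, 0 to 1 in C5F1, 0 to 1 in B6xPWD and 6 to 13 for B6xPWD against B6. The ranges were 44 to 48 for AZA against control organoids, 13 to 20 for PWD against B6, 9 to 16 for C5 against B6 and 35 to 39 for control organoids against Min mucosa, where a lone library left in a group is assumed to vary like the other groups. With the compared groups alone 3 genes were called in C5F1 adenoma, 0 in B6xPWD adenoma and 4 for B6xPWD against B6. Without the libraries above 60% Rn45s 1 was called in C5F1 adenoma. With Rn45s left out, the summed level was 5040 CPM in adenoma, 4665 in Min mucosa and 4549 in wild-type mucosa. In AZA organoids it was 1947 CPM and in control organoids 6223 CPM, although Rn45s held 0.760 to 1.61% of an organoid library. The cause of these higher levels was not tested. With RLE size factors the summed level was 3510 CPM in control organoids, and the cause was not tested. The replicate block left every count of calls within 1.5 times, with 11 for adenoma against Min mucosa, 17 for PWD, 13 for B6xPWD and 13 for C5 against B6, and 47 for AZA (38 in B6 and 40 in C5). In the adenoma comparison over the 4 backgrounds 4 of the 9 calls were lost and 6 gained, as named there, and in B6 adenoma alone Hist1h3g gained a call (0.69, adjusted p = 0.0278). Same-numbered Min and wild-type mucosa exceeded a correlation of 0.1 in 6 of 12 pairs, and AZA and control organoids in 2 of 4. With 2 libraries in each organoid group, both pairs of a background gave the same value (0.015 in B6 and 0.154 in C5). No paired analysis was possible because numbers are not shared for C5 against B6 in control organoids, and none was made for organoids against mucosa. A part of the values for single genes was followed through the alternatives, and none of these changed direction. Of them 2028 stayed on their side of the threshold, 114 lost and 4 gained a call. They do not include all the calls gained with the replicate block, which were 6 in the adenoma comparison over the 4 backgrounds. DESeq2 called 49 genes for AZA, where the median over all genes was 0.25 and that of the clustered histone genes -1.96, against 0.04 and -1.81 with edgeR.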
